A study of Mus musculus with 6 samples.

Results

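The 46 genes described here encode the machinery that separates chromosomes and splits a dividing cell: the kinases and cyclins that start mitosis, the spindle checkpoint, the kinetochore, the spindle motors and the proteins of cytokinesis. They were chosen by name, and all 46 were found among the 48709 genes of the deposited count table. Levels were measured by RNA sequencing of whole gingiva, the oral mucosa around the teeth, from C57BL/6 mice aged 12 weeks. The 3 Plg WT libraries came from mice with intact Plg, the gene of plasminogen, whose active form plasmin dissolves fibrin clots, and the 3 Plg KO libraries came from mice that lack Plg. The series' design text calls the wild type mice littermates and states as the question how the transcriptome of oral mucosal tissue differs in Plg deficiency. The allele, the sex of the mice, the hour of collection and any treatment are absent from the labels and design text, and no label says that each library came from a separate animal; the p-values therefore speak only of how these libraries spread.

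Mitosis genes are transcribed late in the cell cycle, in cells that have copied their DNA, and their products are degraded as division ends. In resting cells a repressor complex named DREAM keeps them silent, and in dividing cells activators that include B-Myb and FoxM1 switch them on. In stratified epithelium such as gingiva, division takes place mainly in the basal layer, so that whole-tissue RNA carries these transcripts at low levels beside abundant keratins. In whole tissue, more dividing cells and more of these transcripts per dividing cell cannot be told apart.

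The promoters are shown first, since the genes share sequence there that the choice of genes did not use. RefSeq's promoter table for GRCm38.p6, which runs from 250 bases before to 50 bases after each gene start, held an entry for 38 of the 46 genes; Aurkb, Ccna2, Cdc25c, Cdca2, Incenp, Kif20a, Pimreg and Tpx2 had none. The strings searched on both strands were CCAAT, the box bound by the factor NF-Y; TTTGAA and TTTAAA, the core of the cell cycle genes homology region (CHR) that DREAM and its activating counterparts contact; and TTTGGCGC, TTTCCCGC and TTTCGCGC, forms of the E2F site found in genes of DNA replication. Matches that overlapped one another were each counted. The RefSeq start lay within 50 bases of the start of the GENCODE gene in 29 of the 38; in Pttg1 it lay 270 bases downstream of it, in Cenpa 109, in Ccnb1 84 and in Kif22 51, in Kif4, Cdca3, Cdca8 and Kif2c 328 to 3867, and in Mad2l1 upstream of it. For Pttg1 the window therefore lies inside the GENCODE gene and the bases before that gene's start were not searched. The lines below give the bases from 225 before to 25 after the start, 5′ to 3′ on the gene's strand, with CCAAT and CHR strings of either strand in capitals. Birc5 and Cenpa are shown because they passed the test between genotypes; Plk1, Cdc20, Kif22, Prc1 and Mki67 because each had one of the smallest p-values of its role group; and Pttg1 as the exception to the pattern of the other genes, chosen after its values were seen.
Birc5, chr11:117849012-117849261, plus strand: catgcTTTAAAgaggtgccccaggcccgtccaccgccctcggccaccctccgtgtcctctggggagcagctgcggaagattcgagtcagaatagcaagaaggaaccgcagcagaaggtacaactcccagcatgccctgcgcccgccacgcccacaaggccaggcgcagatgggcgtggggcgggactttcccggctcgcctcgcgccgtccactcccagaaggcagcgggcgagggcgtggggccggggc
Cenpa, chr5:30666661-30666910, plus strand: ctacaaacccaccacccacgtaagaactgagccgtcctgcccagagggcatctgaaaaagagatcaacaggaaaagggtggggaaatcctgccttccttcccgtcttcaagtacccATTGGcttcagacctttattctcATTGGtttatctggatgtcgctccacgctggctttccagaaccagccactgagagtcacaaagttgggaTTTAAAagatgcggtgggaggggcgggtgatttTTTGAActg
Plk1, chr7:122159210-122159459, plus strand: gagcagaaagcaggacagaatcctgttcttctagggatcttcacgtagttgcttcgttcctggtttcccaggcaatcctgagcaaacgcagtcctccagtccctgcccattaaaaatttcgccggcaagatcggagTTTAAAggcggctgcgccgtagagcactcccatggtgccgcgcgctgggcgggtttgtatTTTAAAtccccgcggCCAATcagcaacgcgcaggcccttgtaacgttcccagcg
Cdc20, chr4:118437319-118437568, minus strand: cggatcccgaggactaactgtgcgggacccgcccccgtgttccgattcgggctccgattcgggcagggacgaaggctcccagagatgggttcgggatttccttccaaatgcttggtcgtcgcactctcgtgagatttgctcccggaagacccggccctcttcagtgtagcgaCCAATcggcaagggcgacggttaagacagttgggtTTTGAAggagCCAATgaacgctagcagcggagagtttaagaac
Kif22, chr7:127042396-127042645, minus strand: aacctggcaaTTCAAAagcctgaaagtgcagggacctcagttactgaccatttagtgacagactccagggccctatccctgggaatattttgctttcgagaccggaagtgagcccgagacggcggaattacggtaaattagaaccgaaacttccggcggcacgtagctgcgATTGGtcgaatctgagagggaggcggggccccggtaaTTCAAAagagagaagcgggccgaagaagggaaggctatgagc
Prc1, chr7:80294226-80294475, plus strand: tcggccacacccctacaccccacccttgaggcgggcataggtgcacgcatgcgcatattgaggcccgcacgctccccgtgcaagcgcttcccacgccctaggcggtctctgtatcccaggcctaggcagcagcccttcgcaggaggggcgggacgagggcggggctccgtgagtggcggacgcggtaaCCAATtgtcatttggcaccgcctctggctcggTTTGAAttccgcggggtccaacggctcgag
Mki67, chr7:135716355-135716604, minus strand: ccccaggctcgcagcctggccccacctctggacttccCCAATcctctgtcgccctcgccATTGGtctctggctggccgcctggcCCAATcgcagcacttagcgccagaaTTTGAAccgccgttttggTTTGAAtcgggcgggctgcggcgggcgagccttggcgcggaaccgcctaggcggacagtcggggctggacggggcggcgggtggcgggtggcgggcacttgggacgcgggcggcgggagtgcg
Pttg1, chr11:43425957-43426206, minus strand: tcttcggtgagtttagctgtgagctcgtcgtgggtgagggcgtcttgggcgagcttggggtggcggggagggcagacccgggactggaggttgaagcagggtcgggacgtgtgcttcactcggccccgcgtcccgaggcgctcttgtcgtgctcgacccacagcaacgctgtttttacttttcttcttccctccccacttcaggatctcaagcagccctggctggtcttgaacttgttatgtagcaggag

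A CHR string was present in 32 of the 38 promoters (84.2%), against 19.9% of the 12157 promoters of tested genes and 27.8% of the 27025 promoters with one entry per symbol. Close to the start the contrast in these shares was wider: 29 of 38 (76.3%) held a CHR string within 50 bases of it, against 5.15% of tested genes and 8.24% of all promoters. Counted from the start, a CHR string began at -17 in Cenpa, -29 in Plk1, -18 in Cdc20, -17 in Kif22 and -5 in Prc1, and farther upstream in Mki67 (-98) and Birc5 (-220). CCAAT was present in 28 of 38 (73.7%), against 38.0% of tested genes, and 20 promoters (52.6%) held more than one, against 14.0%. Both motifs occurred together in 26 promoters (68.4%), against 7.86% of tested genes. The E2F strings were found in 2 promoters (5.26%), those of Cdk1 and Kif15, against 3.26% of tested genes. These matches describe the letters of the window and do not show that a factor binds there.

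**Figure D1:**
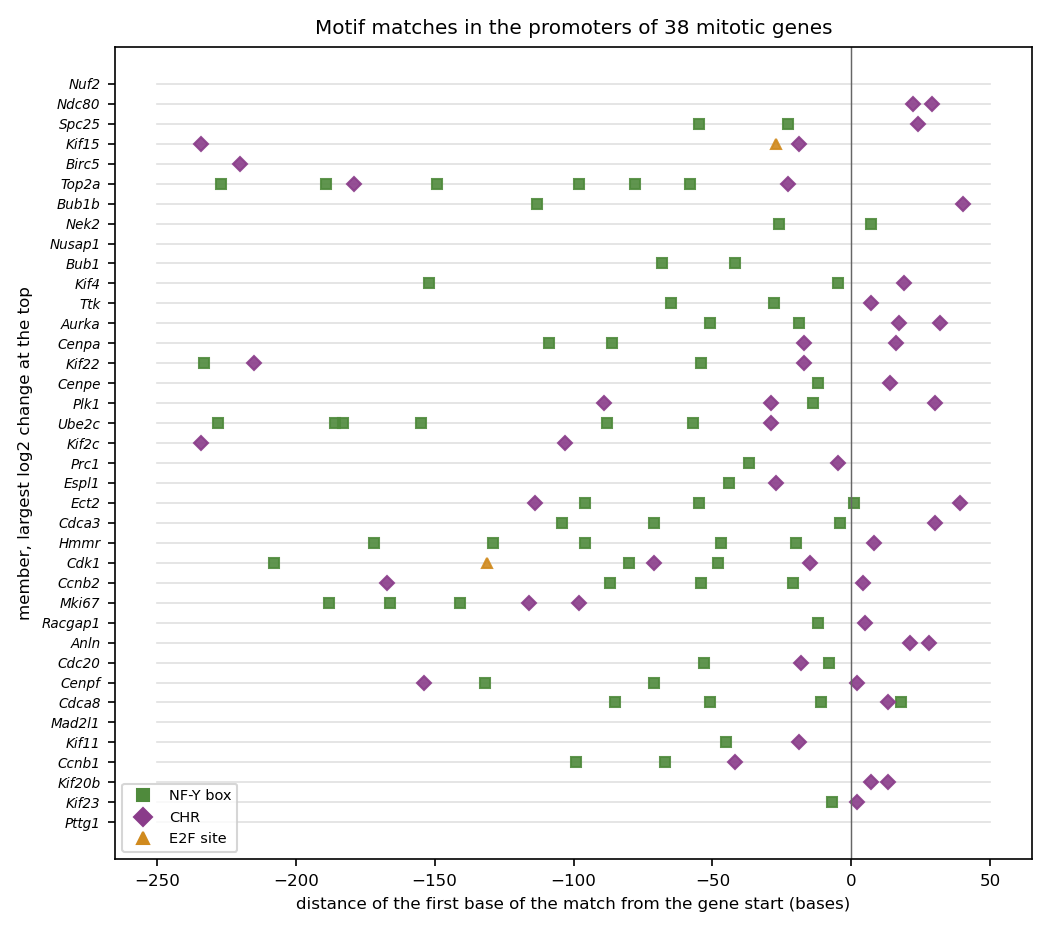
Positions of CCAAT (NF-Y box, squares), CHR (diamonds) and E2F strings (triangles) in the 38 promoters, with distance from the gene start in bases on the x axis and genes ordered by their log2 change between genotypes, largest at the top. CHR strings gather around the start in 29 of 38 genes, spread over the order. The top gene, Nuf2, and the bottom gene, Pttg1, both have neither CHR nor CCAAT in this window. The window of Pttg1 does not reach the start of its GENCODE gene.

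The levels of the 46 mitotic genes pointed one way, with 4 passing the test between genotypes. The fitted log2 change (Plg KO minus Plg WT) was above 0 for 46 of 46 genes, with a median of 0.82 (1.77-fold), while its median over all 17757 tested genes was 0.00 and 49.2% of tested genes lay above 0. In 32 genes the change was between 0.7 and 1.0, in 9 it was above 1.0, and in 5 it was below 0.7. Every Plg KO library lay above every Plg WT library in 41 of 46 genes, against 7.51% of tested genes; in 0 of 46 was it the reverse, against 7.18%. The 5 in which the groups overlapped were Pttg1, Cdc25c, Kif11, Kif20b and Kif23.

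In edgeR's quasi-likelihood test, with p-values adjusted by Benjamini-Hochberg over all 17757 genes, 4 of the 46 passed an adjusted p of 0.05 and all 4 rose: Birc5, Ccna2, Cenpa and Pimreg. The background was 0.191% of tested genes higher (34 genes) and 0.0451% lower (8 genes). A further 13 had adjusted p-values between 0.05 and 0.1. Before adjustment 43 genes were higher at a p under 0.05 and 0 lower, where 4.97% and 4.27% of tested genes were, and the 3 others were Pttg1, Kif11 and Kif20b. DESeq2 on the same counts called 37 of the 46 higher and 0 lower, against 1.33% and 0.674% of the 19422 genes to which it gave an adjusted p. limma-voom called 4 higher and 0 lower, against 0.18% and 0.0507%. The shares given here with each test are also the background for its counts in the groups and lists below. Without Plg WT 2, Plg WT 3, Plg KO 2 or Plg KO 3, 0 of 46 passed in edgeR. The smallest edgeR adjusted p of any of the genes was then 0.091, 0.0623, 0.0856 and 0.0533. Of the 43 genes, 41, 42, 39 and 43 kept an unadjusted p under 0.05. Each of these fits had 2 libraries in 1 group, and calls over all genes were 2, 3, 3 and 3. Without Plg WT 1, 7 of the 46 passed, and without Plg KO 1, 3 of the 46 did. Calls over all genes in these 2 fits were 219 and 38. The median log2 change stayed between 0.71 and 0.91 when any 1 library was left out, and 45 or 46 genes stayed above 0.

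**Figure D2:**
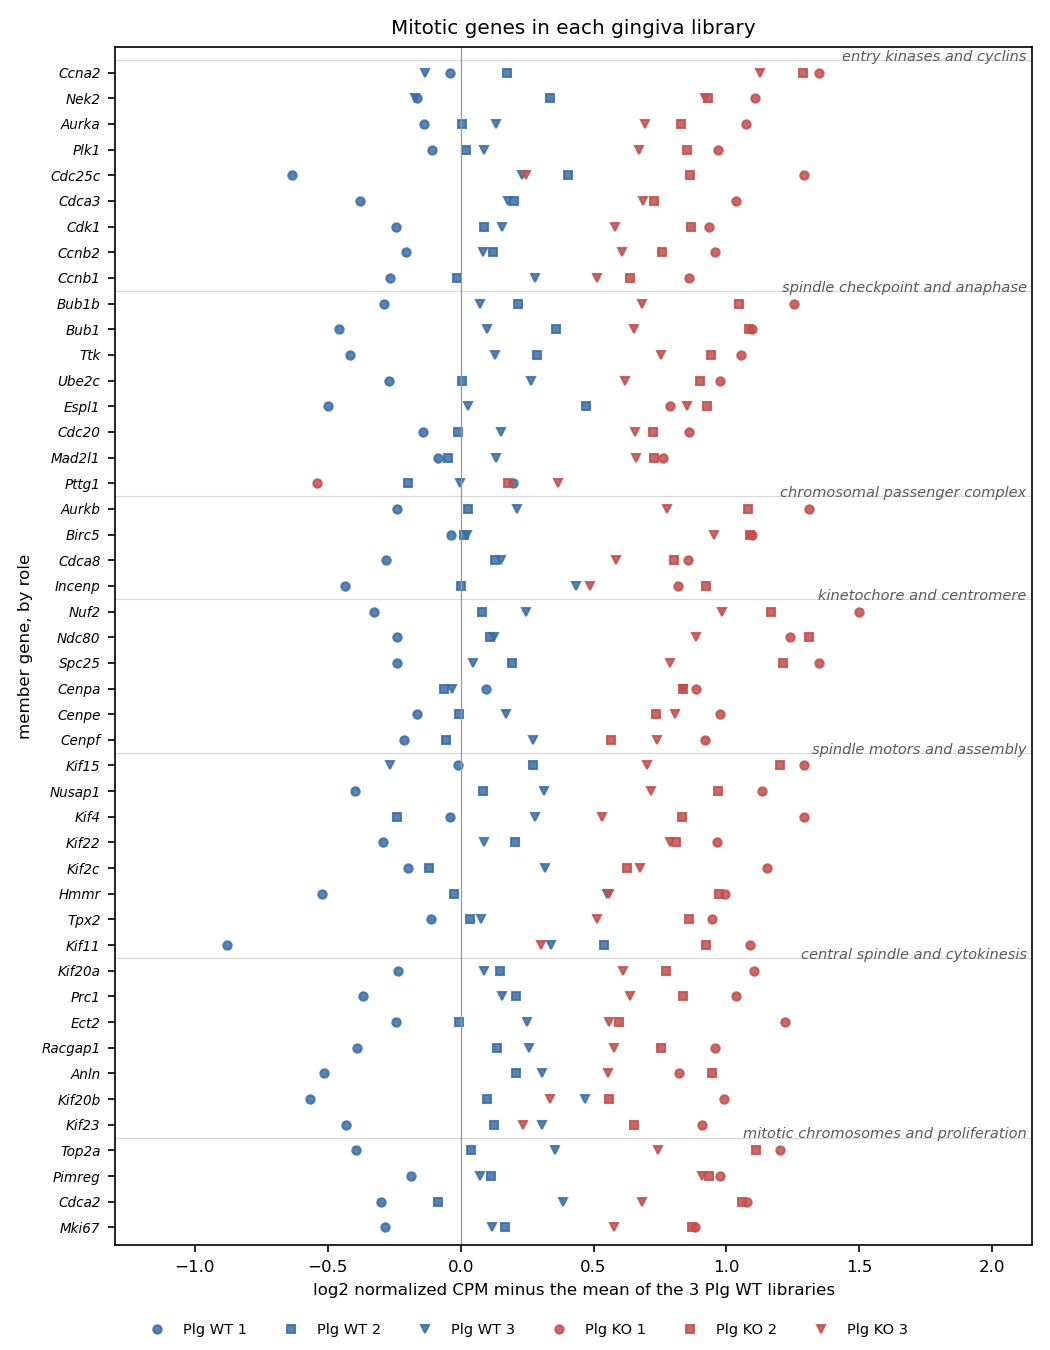
Level of each of the 46 genes in each library, as log2 normalized CPM minus the mean of the 3 Plg WT libraries, grouped by role; blue symbols are Plg WT libraries and red symbols Plg KO libraries. Red lies to the right of blue in 41 rows, Plg WT 1 is the leftmost library in 40 rows and Plg KO 1 the rightmost in 41, and in the row of Pttg1 the Plg KO 1 symbol is the leftmost.

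The kinases and cyclins that start mitosis were led by Ccna2, which encodes cyclin A, the partner of the cyclin-dependent kinases through S phase and into mitosis. Ccna2 (ENSMUSG00000027715, chr3:36564865-36572150, minus strand, GRCm38) was at 9.39, 10.9 and 8.81 CPM (read counts scaled to the size of the library) in Plg WT 1, 2 and 3, and at 24.6, 23.6 and 21.1 CPM in Plg KO 1, 2 and 3. The lowest Plg KO library was thus well above the highest Plg WT library, and the log2 change of 1.25 ± 0.13 (SE, n = 3 and 3) was the largest of the 46 genes (edgeR adjusted p = 0.0198). Plk1, the polo-like kinase that acts on centrosomes, kinetochores and the cleavage site (chr7:122159439-122169873, plus strand), was at 18.4, 20.1 and 21.1 CPM in Plg WT and 38.8, 35.8 and 31.6 CPM in Plg KO. The groups did not overlap, and the change of 0.83 ± 0.12 missed the threshold by little (edgeR adjusted p = 0.0504).

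Cdk1, the kinase whose activity defines mitosis, had a mean of 39.7 ± 5.61 CPM (SD, n = 3) in Plg WT and 68.7 ± 8.59 CPM in Plg KO, a log2 change of 0.79 ± 0.14 with an edgeR adjusted p of 0.0975. Its cyclin partners Ccnb1 and Ccnb2 had changes of 0.66 ± 0.16 and 0.78 ± 0.13, and Aurka, the kinase that matures the spindle poles, 0.87 ± 0.13. Nek2, a kinase that splits the centrosomes, was at 6.80, 9.60 and 6.76 CPM in Plg WT and 16.4, 14.5 and 14.4 CPM in Plg KO. Cdca3, an adaptor thought to trigger entry, had a change of 0.80 ± 0.18. Cdc25c, the phosphatase that activates Cdk1, was the one gene of these 9 whose groups overlapped: Plg KO 3 at 21.7 CPM lay below Plg WT 2 at 24.2 CPM. Over the 9 genes, 1 passed the adjusted threshold in edgeR, DESeq2 called 8 and limma-voom 1. In edgeR 9 were higher at an unadjusted p under 0.05, against 4.97% of tested genes. The median change was 0.80.

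The spindle checkpoint holds a cell before anaphase until each chromosome is attached, and Cdc20 then turns on the anaphase-promoting complex, which destroys securin and cyclin B. None of the 8 genes of this group passed the adjusted threshold in edgeR, 7 had an unadjusted p under 0.05, DESeq2 called 6 and limma-voom 0. Cdc20 (chr4:118432901-118437352, minus strand) was at 32.8, 35.9 and 40.2 CPM in Plg WT and 65.7, 59.8 and 57.0 CPM in Plg KO, with no overlap and a log2 change of 0.74 ± 0.11 (edgeR adjusted p = 0.0587). Mad2l1, the checkpoint protein that holds Cdc20 inactive (chr6:66535390-66547220, plus strand), was at 12.3, 12.6 and 14.3 CPM in Plg WT and 22.1, 21.6 and 20.6 CPM in Plg KO, with no overlap and a change of 0.72 ± 0.11 (edgeR adjusted p = 0.0682). The other checkpoint genes Bub1, Bub1b and Ttk, all kinases or kinase-related proteins at the kinetochore, had changes of 0.92 ± 0.24, 1.0 ± 0.19 and 0.89 ± 0.21. Ube2c, the ubiquitin-conjugating enzyme of the anaphase-promoting complex, had a change of 0.82 ± 0.16, and Espl1, the separase that cuts cohesin, had 0.81 ± 0.25.

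Pttg1, which encodes securin, the inhibitor of separase, did not follow its group. Its level (chr11:43420250-43426251, minus strand) was 131.0, 99.6 and 114 CPM in Plg WT and 78.4, 129 and 147 CPM in Plg KO. The groups overlapped fully, Plg KO 1 was the lowest of the 6 libraries and Plg KO 3 the highest, and the log2 change was 0.04 ± 0.23 (edgeR adjusted p = 0.983). Per kilobase of exon Pttg1 was also the most abundant of the 46 transcripts, at 57.5 CPM per kilobase in Plg WT and 59.1 in Plg KO; Cdc20 came next at 19.4 and 32.6, and Kif15 was the lowest at 0.318 and 0.668. Its order over the 6 libraries was that of the summed level of 5 skeletal muscle genes (Acta1, Ckm, Myh4, Myh1 and Tnnt3), which was 9808.1, 5138.0 and 6303.5 CPM in Plg WT and 2211.3, 8571.1 and 10177.9 CPM in Plg KO. That likeness was found after the values were seen, over 6 libraries only, and the part of muscle RNA in the Pttg1 values was not tested. In the 4 settings with limma or a sex term and in 3 that left out 1 library (Plg WT 2, Plg KO 2 or Plg KO 3) the Pttg1 change was below 0, from -0.15 to -0.00144.

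The chromosomal passenger complex, in which the kinase Aurora B is held on chromosomes by survivin, INCENP and borealin, corrects wrong attachments and later directs cytokinesis. Birc5 (ENSMUSG00000017716, chr11:117849251-117855743, plus strand), the gene of survivin, was at 33.1, 34.3 and 34.5 CPM in Plg WT and 72.6, 72.2 and 65.8 CPM in Plg KO. Both groups were tight and far apart, and the log2 change of 1.05 ± 0.08 (2.07-fold) had the smallest adjusted p of the 46 genes (edgeR adjusted p = 0.0107), a value below which only 4 genes of the whole table lay. Aurkb, the kinase itself (chr11:69045647-69051664, plus strand), was at 13.9, 16.7 and 19.0 CPM in Plg WT and 40.7, 34.7 and 28.1 CPM in Plg KO. The change in Aurkb was as large, 1.06 ± 0.17, with a wider spread (edgeR adjusted p = 0.0841). Cdca8, the gene of borealin, had 0.74 ± 0.14 and Incenp 0.71 ± 0.23, and in Incenp the lowest Plg KO library (19.7 CPM) was barely above the highest Plg WT library (19.0 CPM). Of the 4 genes of this complex edgeR called 1, DESeq2 3 and limma-voom 1.

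The kinetochore genes had the largest median change of the 7 role groups, 0.99 over 6 genes. Every Plg KO library lay above every Plg WT library in 6 of 6, against 7.51% of tested genes. Cenpa (ENSMUSG00000029177, chr5:30666777-30674830, plus strand) encodes the histone variant that marks the centromere. It was at 31.4, 28.1 and 28.7 CPM in Plg WT and 54.3, 52.4 and 52.5 CPM in Plg KO, and it rose by 0.85 ± 0.09 (edgeR adjusted p = 0.0198). Ndc80, Nuf2 and Spc25 encode subunits of the complex that grips microtubules. Ndc80 (chr17:71496100-71526857, minus strand) was at 5.60, 7.14 and 7.21 CPM in Plg WT and 15.6, 16.4 and 12.2 CPM in Plg KO, a change of 1.15 ± 0.17 (edgeR adjusted p = 0.0665). Nuf2 was at 9.20, 12.2 and 13.7 CPM against 32.6, 25.9 and 22.8 CPM, a change of 1.21 ± 0.19, and Spc25 had 1.13 ± 0.19. All 3 subunits were thus more than 2-fold higher in their means, with adjusted p-values above 0.05 in edgeR and limma-voom. In DESeq2 the adjusted p-values were 1.03e-05 for Ndc80, 1.39e-05 for Nuf2 and 8.23e-05 for Spc25. Of the 6 kinetochore genes edgeR called 1, DESeq2 6 and limma-voom 1. Cenpe, a motor that carries chromosomes to the spindle's middle, and Cenpf, a large outer kinetochore protein, had changes of 0.84 ± 0.13 and 0.74 ± 0.15.

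None of the 8 spindle motor and assembly genes passed the adjusted threshold in edgeR, 7 had an unadjusted p under 0.05, DESeq2 called 6 and limma-voom 0. Kif22, a motor that pushes chromosome arms (chr7:127027729-127042471, minus strand), was at 16.5, 23.3 and 21.5 CPM in Plg WT and 39.5, 35.5 and 34.9 CPM in Plg KO, a change of 0.84 ± 0.14 (edgeR adjusted p = 0.0905). Tpx2, which nucleates microtubules around chromosomes and activates Aurora A (chr2:152847964-152895321, plus strand), was at 14.9, 16.5 and 17.0 CPM in Plg WT and 31.0, 29.2 and 23.0 CPM in Plg KO, a change of 0.78 ± 0.14 (edgeR adjusted p = 0.1). In both genes the groups were apart. Kif15, which helps to keep the spindle bipolar, had the largest change of the group, 1.07 ± 0.23, at low levels, and Kif4, which organises chromosomes and the midzone, had 0.90 ± 0.23. Nusap1 and Hmmr, proteins that bind spindle microtubules, had 0.92 ± 0.19 and 0.79 ± 0.27, and Kif2c, which takes microtubules apart, had 0.82 ± 0.20. Kif11, the motor that pushes the poles apart, was the one whose groups overlapped: its levels were 6.71, 17.9 and 15.6 CPM in Plg WT and 26.2, 23.4 and 15.2 CPM in Plg KO, and its SE of 0.36 was the largest of the 46 genes.

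The genes of the central spindle and cytokinesis had the smallest median change of the 7 role groups, 0.75 over 7 genes, and 2 of them, Kif20b and Kif23, had overlapping groups. Kif20a, a motor that brings the passenger complex to the midzone (chr18:34624613-34633277, plus strand), was at 10.8, 14.1 and 13.5 CPM in Plg WT and 27.3, 21.7 and 19.4 CPM in Plg KO, a change of 0.83 ± 0.17 (edgeR adjusted p = 0.153). Prc1, which bundles the midzone microtubules (chr7:80294450-80316259, plus strand), was at 20.8, 31.0 and 29.9 CPM in Plg WT and 55.0, 47.9 and 41.7 CPM in Plg KO, a change of 0.82 ± 0.18 (edgeR adjusted p = 0.172). The groups of these 2 genes did not overlap. Racgap1 and Kif23, partners in the centralspindlin complex, had changes of 0.75 ± 0.19 and 0.59 ± 0.24; Ect2, the activator of RhoA that they recruit, had 0.81 ± 0.22; and Anln, a scaffold of the contractile ring, had 0.74 ± 0.22. In this group edgeR called 0 of 7 with 6 at an unadjusted p under 0.05, DESeq2 called 4 and limma-voom 0.

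The last 4 genes act on mitotic chromosomes or serve as marks of proliferation. In all 4 every Plg KO library lay above every Plg WT library, against 7.51% of tested genes. Of these 4, edgeR called 1, DESeq2 4 and limma-voom 1. Pimreg (ENSMUSG00000020808, chr11:72042032-72047370, plus strand), whose product peaks in mitosis, was at 7.59, 9.35 and 9.07 CPM in Plg WT and 17.0, 16.5 and 16.2 CPM in Plg KO and rose by 0.93 ± 0.13 (edgeR adjusted p = 0.048). Mki67, the gene of the proliferation marker Ki-67, which coats mitotic chromosomes (chr7:135689784-135716361, minus strand), was at 17.2, 23.5 and 22.7 CPM in Plg WT and 38.6, 38.3 and 31.2 CPM in Plg KO, a change of 0.77 ± 0.15 (edgeR adjusted p = 0.144). Top2a, the topoisomerase that untangles sister chromatids, had a mean of 43.0 ± 10.9 CPM (SD, n = 3) in Plg WT and 86.0 ± 13.8 CPM in Plg KO, and Cdca2, which recruits a phosphatase to chromatin, had a change of 0.92 ± 0.20.

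**Figure D3:**
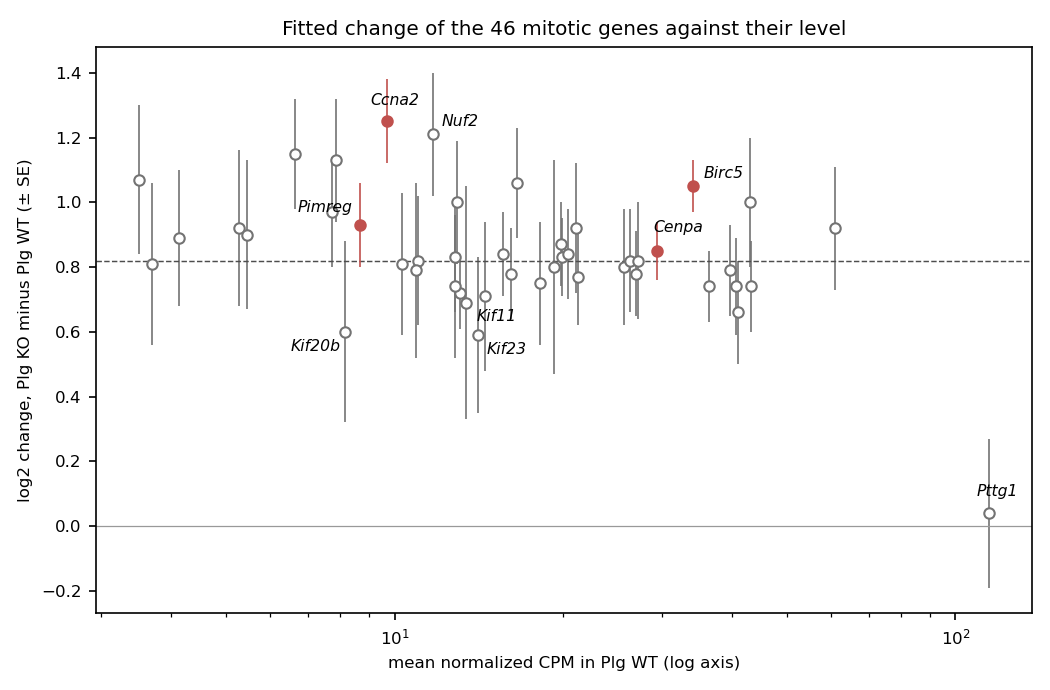
Fitted log2 change (Plg KO minus Plg WT) with its standard error against mean normalized CPM in the 3 Plg WT libraries (log axis), 1 point for each of the 46 genes; filled red points passed an edgeR adjusted p of 0.05 and the dashed line is the median of 0.82. Points lie along the dashed line over the whole range of levels, from 3.5 CPM upwards, and Pttg1, at 115 CPM, sits alone near 0.

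The median change was alike in genes with low and with high Plg WT levels. That likeness was not tested, and the Plg WT levels also enter the change itself. The 23 genes with the lowest Plg WT means had a median change of 0.84 and the 23 with the highest had 0.80, and the lowest count of any of the 46 genes in any library was 90. The 32 promoters with a CHR string belonged to genes with a median change of 0.82 (range 0.59 to 1.15). The 6 without one (Nek2, Bub1, Mad2l1, Pttg1, Nuf2 and Nusap1) belonged to genes with a median of 0.92 (range 0.04 to 1.21). With only 6 genes on 1 side and some windows inside the GENCODE gene, this split cannot show whether the change follows the strings. The windows of Mad2l1, Pttg1, Nuf2 and Nusap1 held neither CHR nor CCAAT, and they include both the smallest change and one of the largest. The library kit does not mark strand as far as the labels describe it, and exons of 13 of the 46 genes overlap those of another gene. The largest shared stretches were 29.3% of the exonic length of Kif20a (with Cdc23), 22.8% of Ube2c (with Tnnc2, a muscle gene) and 15.1% of Kif4 (with Pdzd11). Next came 12.7% of Cdc25c (with Gm3550) and 12.5% of Ccna2 (with Exosc9). Part of the counts of these genes may therefore belong to the neighbour.

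Other genes of the cell cycle were read in the same fit, by stage. In a list of 71 further mitotic genes the median change was 0.72 and 68 were above 0. edgeR called 0 of the 71 in either direction. At a p under 0.05 before adjustment 52 were higher and 1 was lower, against 4.97% and 4.27% of tested genes. DESeq2 called 24 higher and limma-voom 0. The 3 with the smallest p were Cenpm, a centromere protein, with 0.90 ± 0.14 (edgeR adjusted p = 0.0665), Spc24, the partner of Spc25, with 1.16 ± 0.18 (0.07 by the same test), and Cdkn3, a phosphatase of cyclin-dependent kinases, with 0.81 ± 0.13 (0.0718). Spc24 was at 9.91, 9.82 and 11.9 CPM in Plg WT and 26.8, 25.9 and 18.0 CPM in Plg KO, the pattern of Spc25. Of the 3 genes below 0 (Wee1, Cenpt and Cdc25b, named after their values were seen), the one at a p under 0.05 before adjustment was Wee1, the kinase that restrains Cdk1. Its change was -0.38 ± 0.15, from 11.7, 16.2 and 14.0 CPM in Plg WT to 10.6, 11.2 and 10.4 CPM in Plg KO (edgeR adjusted p = 0.47).

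The 45 genes of DNA replication and S phase had a smaller median change, 0.20, with 39 above 0. edgeR called 0 of them, 11 were higher at a p under 0.05 before adjustment and 0 were lower, DESeq2 called 2 and limma-voom 0. Those with the smallest p were Rrm1 and Rrm2, the subunits of ribonucleotide reductase, with 0.56 ± 0.13 and 0.97 ± 0.22 (edgeR adjusted p = 0.187 for each), and Rfc5, a loader of the replication clamp, with 0.46 ± 0.12. Rrm2 was at 26.0, 43.2 and 34.8 CPM in Plg WT and 80.9, 69.1 and 53.2 CPM in Plg KO, a spread like that of Top2a. The clamp itself, Pcna, named after its values were seen, was at 30.9, 30.2 and 29.5 CPM in Plg WT and 32.0, 33.4 and 26.7 CPM in Plg KO. The difference between this list and the mitotic genes was not tested.

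Genes that act before S phase had no common direction. Of 15 G1 cyclins, kinases and E2F factors, 5 were above 0 and the median was -0.10; edgeR, DESeq2 and limma-voom called 0, with E2f2 higher and Ccnd2, the gene of cyclin D2, lower at an unadjusted p under 0.05. E2f2 was at 7.70, 7.21 and 6.15 CPM in Plg WT and 12.2, 8.62 and 9.69 CPM in Plg KO, a change of 0.54 ± 0.17 (edgeR adjusted p = 0.375). Ccnd2 was at 124, 152 and 234 CPM against 138, 91.3 and 85.7 CPM, with overlapping groups and a change of -0.70 ± 0.27 (edgeR adjusted p = 0.481). Ccnd1, the gene of cyclin D1, had -0.31 ± 0.15 (edgeR adjusted p = 0.59). Of 14 tested inhibitors of cyclin-dependent kinases and targets of p53, edgeR called 0, 3 were higher at an unadjusted p under 0.05 and 0 lower, DESeq2 called 1 and limma-voom 0, with a median of 0.11. The leading gene was Cdkn2d, which encodes an inhibitor of Cdk4 and Cdk6: 33.1, 36.3 and 37.7 CPM in Plg WT and 54.7, 54.6 and 52.9 CPM in Plg KO, a change of 0.60 ± 0.09 (edgeR adjusted p = 0.0587). The groups of Cdkn2d did not overlap and were narrow. Cdkn2b, another inhibitor of these kinases, had 0.31 ± 0.10 (edgeR adjusted p = 0.393), and Btg2, an antiproliferative target of p53, had 0.36 ± 0.14 (edgeR adjusted p = 0.484).

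Among the factors that control mitotic transcription, the gene of the activator FoxM1 had the largest change. Foxm1 was at 3.60, 4.61 and 3.78 CPM in Plg WT and 7.59, 9.52 and 7.37 CPM in Plg KO, a change of 1.03 ± 0.18 (edgeR adjusted p = 0.0946). Mybl2, the gene of B-Myb, was at 2.46, 2.39 and 1.92 CPM against 4.05, 3.73 and 2.21 CPM with overlapping groups (0.56 ± 0.28), and Nfyc, a subunit of NF-Y, had -0.15 ± 0.10. Over the 14 genes the median was 0.01; edgeR called 0, 1 was higher at a p under 0.05 before adjustment and 0 were lower, DESeq2 called 1 and limma-voom 0. The 16 core and accessory genes of the anaphase-promoting complex, most of which are not transcribed by cell cycle stage, had a median of 0.02; edgeR, DESeq2 and limma-voom called 0, with 2 higher at a p under 0.05 before adjustment and 0 lower. Ube2s, its second ubiquitin-conjugating enzyme, led with 0.51 ± 0.16, followed by Fzr1, its late activator, with 0.21 ± 0.08 and Anapc11, its RING subunit, with -0.14 ± 0.08.

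**Figure D4:**
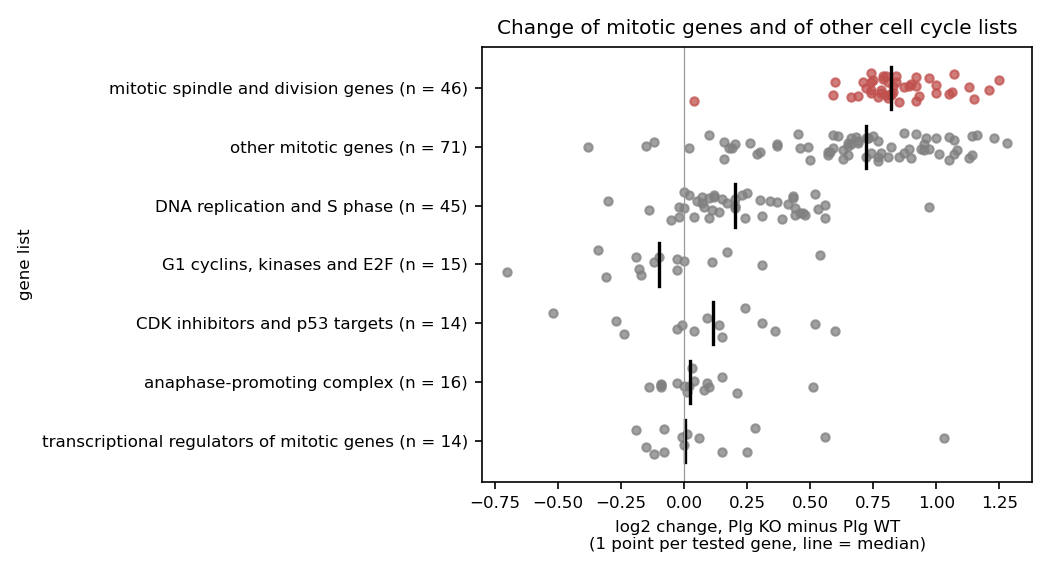
Fitted log2 change (Plg KO minus Plg WT) of every tested gene of the mitotic list (red) and of 6 other cell cycle lists (grey), with a black line at each median and vertical scatter only to separate points. The medians run from 0.82 and 0.72 in the mitotic lists to 0.20 in the S phase list and between -0.10 and 0.11 in the others.

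The mitotic genes differed among libraries of one genotype too. Without Pttg1, the 45 genes summed to 715.1 CPM in Plg WT 1, 911.3 in Plg WT 2 and 985.5 in Plg WT 3. The sums were 1752.7 CPM in Plg KO 1, 1573.1 in Plg KO 2 and 1367.3 in Plg KO 3. Plg WT 1 was the lowest library for 40 of the 46 genes, Plg KO 1 the highest for 41, and Plg KO 3 the lowest of the Plg KO libraries for 40. The highest Plg WT library was Plg WT 3 for 27 genes and Plg WT 2 for 17. The median log2 change was 0.71 without Plg WT 1 and 0.72 without Plg KO 1. Y-linked transcripts marked Plg WT 3 and Plg KO 1 as male and the rest as female; in the 4 female libraries alone the median was 0.82 and 46 genes were above 0, but edgeR called 0, with 40 at an unadjusted p under 0.05.

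The libraries held 36006829, 28184139 and 31776002 counts in Plg WT and 36429150, 26183389 and 35651489 in Plg KO, so that 3 counts, the limit that a count of 0 allows, correspond to 0.0824 to 0.115 CPM, far below the level of any of the 46 genes. Plg had 2 counts in all Plg WT libraries together and 2 in all Plg KO libraries, so its transcript, made mainly in liver, gives no check of genotype in gingiva.

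Markers of the cells that could carry these transcripts were read beside them. The 7 basal keratinocyte markers, led by Krt14, summed to 17832.2, 19506.9 and 18462.9 CPM in Plg WT and 18779.9, 18010.2 and 16061.4 CPM in Plg KO, with overlapping groups and a median change of -0.06. Krt14 made up most of these sums, with 14910.9 CPM in Plg WT 1. The markers did not move alike, and edgeR called 0 of them. Itgb4 was higher (0.35 ± 0.12) and Col17a1 lower (-0.43 ± 0.11), each with no overlap of the groups, against 7.51% and 7.18% of tested genes. Per 1000 CPM of these markers, the 45 mitotic genes without Pttg1 summed to 40.1, 46.7 and 53.4 CPM in Plg WT and 93.3, 87.3 and 85.1 CPM in Plg KO. This ratio was chosen after the values were seen. It brought the Plg KO libraries closer to each other, while Plg WT 1 stayed the lowest Plg WT library and Plg WT 3 the highest. Of 8 neutrophil markers, 7 were higher at an unadjusted p under 0.05, against 4.97% of tested genes. edgeR and limma-voom called 0 and DESeq2 called 6, and the median change was 2.45. These neutrophil markers summed to 38.6, 65.5 and 77.2 CPM in Plg WT and 231, 506 and 152 CPM in Plg KO. Markers of their dividing precursors (Elane, Mpo, Prtn3, Ctsg and Ms4a3) summed to 15, 5 and 12 counts in Plg WT and 7, 10 and 49 counts in Plg KO, too few for any of the 5 to be tested. Skeletal muscle RNA differed widely inside each genotype and was lowest in Plg KO 1. The part of muscle and neutrophil RNA in the values of the mitotic genes was not tested. The 10 differentiated keratinocyte, 6 wound keratinocyte, 6 fibroblast, 6 endothelial, 6 macrophage and 4 Schwann cell markers had median log2 changes of -0.33, -0.04, -0.47, -0.15, 0.02 and -0.84. The tested markers of T cells (5 of 6), B and plasma cells (6 of 6) and adipocytes (4 of 4) had medians of -0.26, -3.44 and -1.62. Those of erythroid precursors (2 of 5) and salivary gland (4 of 6) had -0.61 and 0.69. In these 11 lists edgeR called 1 gene, an adipocyte marker, lower, and DESeq2 called 4 B and plasma cell and 2 adipocyte markers lower. Every Plg KO library lay below every Plg WT library in 4 of the 6 B and plasma cell markers, against 7.18% of tested genes. The same held for 2 of the 4 adipocyte, 2 of the 6 fibroblast, 1 of the 10 differentiated keratinocyte and 1 of the 6 endothelial markers. For 0 markers of these lists was it the reverse, against 7.51%.

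Circadian clock genes also differed between the same libraries. Of 19, edgeR called 2 higher and 7 lower, against 0.191% and 0.0451% of tested genes. DESeq2 called 3 higher and 10 lower, and limma-voom called 2 higher and 9 lower. Nr1d1, the gene of the repressor REV-ERBα, was at 95.5, 101 and 101 CPM in Plg WT and 37.6, 33.8 and 34.4 CPM in Plg KO. It fell by 1.49 ± 0.08 (edgeR adjusted p = 0.0032). Dbp and Nr1d2, which follow the same daily rhythm, fell by 2.91 ± 0.25 and 1.15 ± 0.12 (edgeR adjusted p = 0.015 and 0.0229). Epithelial division is known to follow the time of day. The part of the hour of collection in the mitotic values was not tested.

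**Figure D5:**
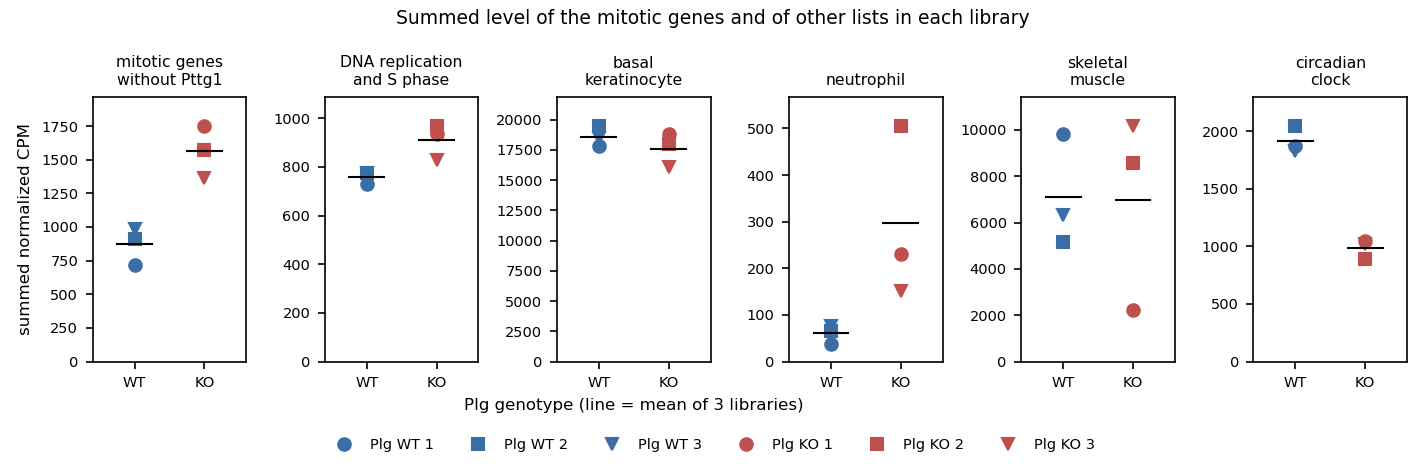
Summed normalized CPM per library of the 45 mitotic genes without Pttg1 and of 5 other lists, each panel with its own axis from 0; symbols are libraries and lines are means of 3. The mitotic, S phase, neutrophil and clock panels separate the genotypes, the basal keratinocyte and muscle panels do not, and Plg KO 1 is highest in the mitotic panel and lowest in the muscle panel.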

How the data were processed

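RNA from gingiva of Plg WT and Plg KO mice was made into Nextera XT libraries, 3 per genotype, and sequenced as pairs of 37 bp, per the labels' protocols. Per the submitters' processing notes the tools included STAR 2.5.2a, edgeR, limma and DESeq2 and the builds GRCm38.p3 and mm10; the counting tool, its strand setting and the gene models were not named there. The authors deposited raw counts for 48709 genes, beside 22 entries that name no gene (at most 3.55e-05% of a library, left out). They also deposited CPM values for 21948 genes, named as TMM-normalized and filtered; 100% of these were whole reads within 0.01 read once scaled back, and 100% of those reads equalled the raw count.

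Gene symbols came from the deposited CPM table, and positions and exonic lengths from GENCODE M21 (GRCm38). Raw counts were fitted with edgeR 4.0.16 under R 4.3.3 (TMM factors, filterByExpr, quasi-likelihood test, genotype only), with Benjamini-Hochberg adjustment over the 17757 genes tested and a threshold of 0.05. SE is the absolute log2 change divided by the root of the F statistic. CPM in the text use the TMM factors of this fit. Alternatives were DESeq2 1.42.0, limma 3.58.1 (voom, and trend on the deposited CPM plus 0.5 or 0.1), the reads recovered from CPM, other scalings and filters, a replicate block, a sex term, female libraries only and each library left out. In a simulation of the comparison of Plg KO with Plg WT over 17448 genes, edgeR found 57 of 99 genes with a 2-fold difference, 91 of 98 with a 4-fold difference and 7 of 17251 with none. Each simulated gene took its spread from the fitted trend with level and had no spread of its own. These figures may therefore not hold for the data. No 2 libraries were copies of one another.

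The genes and lists were chosen with earlier results of these data known. By rule, values per library are given for Plg, each called gene, the 2 with the smallest p in each role group and those with the largest and smallest change; the 3 with the smallest p in each other list are named, at least with change and SE.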

Additional observations from a re-analysis of the deposited data

How the results depend on the processing

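With 3 libraries a group, the number of calls varied with the setting. Calls over all genes were 42 (81% higher); they were 390 with DESeq2 (66.4% higher), 162 without a filter on low counts (75.3%), 65 with a sex term, 7 in female libraries only (71.4%) and 2 with the replicate block, and from 2 to 219 when 1 library was left out. Of the 46 mitotic genes, 4 were called; 37 were with DESeq2, 24 without a filter, 11 with a sex term, 0 in female libraries only, 0 with the replicate block, and from 0 to 7 when 1 library was left out. The other scalings, limma fits, recovered reads and strict filter gave 3 to 5. The number of mitotic genes above 0 was 45 or 46 and their median log2 change 0.711 to 0.911 in all 18 alternatives. The deviations of same-numbered libraries of the 2 genotypes had correlations of -0.255, -0.013 and -0.225, and those of the other pairs ran from -0.101 to 0.288. With 3 libraries a group, these values cannot show whether the replicate numbers pair the libraries. Under the replicate block 41 of the 46 kept an unadjusted p under 0.05. The only reversals were in Pttg1: -0.00144 with limma-voom, -0.00371 and -0.00388 with limma-trend on CPM plus 0.5 and 0.1, -0.01 with a sex term, and below 0 without Plg WT 2, Plg KO 2 or Plg KO 3, in a range from -0.15 to 0.26 when 1 library was left out. Over 828 pairs of a mitotic gene and an alternative, 727 kept their side of the threshold and direction, 65 passed it newly and 29 lost it. Causes were not tested.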
